A study of Mus musculus with 6 samples.

Results

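The interleukin 6 (IL-6) family was followed through 9 of its transcripts in cultured stromal fibroblasts of the mouse mammary gland: the ligand genes Il6, Il11 and Lif, the receptor genes Il6ra, Il6st, Osmr and Lifr, the transcription factor gene Stat3 and its feedback inhibitor Socs3. They were chosen by gene symbol from the 23337 genes listed, all 9 were found, and all 9 passed the low-count filter that left 13442 genes for testing. There were 3 libraries from Sharpin-cpdm mice (cpdm/cpdm) and 3 from wild-type mice (wt/wt), all of the C57BL/KaLawRij strain, aged 7 weeks, and each library came from cells of 3 pooled mice at passage 0. The cpdm allele is a spontaneous loss-of-function mutation of Sharpin, whose protein belongs to LUBAC, the ligase that builds linear ubiquitin chains. It is carried by every cell of the animal, so the cultures do not isolate a loss in fibroblasts alone. All cultures of both genotypes were grown to confluence in medium with serum, and the labels name no added cytokine.

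Cytokines of this family signal through gp130, the shared receptor chain encoded by Il6st. IL-6 and IL-11 first bind a ligand-specific chain (IL6RA or IL11RA) and then a pair of gp130 chains, whereas LIF joins LIFR to gp130 and oncostatin M joins OSMR to gp130. The receptors activate Janus kinases, which phosphorylate STAT3, and STAT3 induces Socs3, whose product binds gp130 and shuts the signal off. In the mammary gland, LIF and STAT3 are known for starting involution after lactation, and fibroblasts are known as a stromal source of IL-6.

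The files give whole counts per gene, with between 13570649 and 15656196 counts assigned to genes in a library, and levels are given as CPM, each gene's share of these counts on the usual per-million scale. The 3 values of a genotype always stand in the order of its replicate numbers, 1, 2 and 3. Sharpin itself had CPM of 10.5, 9.13 and 9.50 in Sharpin-cpdm, against 24.5, 25.2 and 31.2 in wild type. Its log2 fold change, Sharpin-cpdm over wild type, was -1.49 ± 0.14 (SE, n = 3 per group), which edgeR's quasi-likelihood test did not call (adjusted p = 0.272). The same test with the replicate number as a block, which compares same-numbered libraries, gave -1.48 ± 0.12 and called it (adjusted p = 0.00595). All 15 fibroblast markers listed were detected.

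None of the 9 transcripts passed an adjusted p of 0.05, but most stood slightly lower in Sharpin-cpdm than in the wild-type library of the same number. In edgeR's test without the block, 0 of the 9 were called, as were 0 of 13442 genes, a background of 0%, with 307 genes (2.28%) and 0 of the 9 reaching p under 0.05 before adjustment. With the block, 0 of the 9 were again called, where 2.51% of all tested genes were. With the block and no adjustment, p was under 0.05 for 6 of the 9, all lower, where 17.3% of tested genes reached it in either direction and 9.82% as lower. That count was 2 of the 9 in DESeq2 with the block, where 1022 of 13442 genes reached it in either direction. In edgeR with the block it was 6, 3 and 3 of the 9 without pair 1, 2 and 3. Of all genes, 2498 of 13605, 1702 of 13517 and 1538 of 13465 reached it in those 3 fits. In CPM, 7 of the 9 were lower in all 3 pairs, all but Il11 and Lif, a pattern shown by 18.5% of tested genes, while 0 of the 9 were higher in all 3 pairs, as 22.7% of tested genes were. Without the block 8 of the 9 log2 fold changes were below 0, as were 50.9% of all. The median log2 fold change of the 9 with the block was -0.25, and that of all tested genes was -0.0017. On no transcript of the 9 did the CPM of the groups separate, where 5.94% of tested genes did. The 9 are not independent of each other. Over the 6 libraries, log2 CPM of Il6st, Osmr, Stat3 and Socs3 correlated at Pearson's r between 0.960 and 0.984. That measure includes the differences between pairs given further on. Counts among the 9 are therefore not counts of separate results, and the set was not tested as a whole. With bulk RNA, fewer cells of a type and less RNA per cell cannot be told apart.

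**Figure D1:**
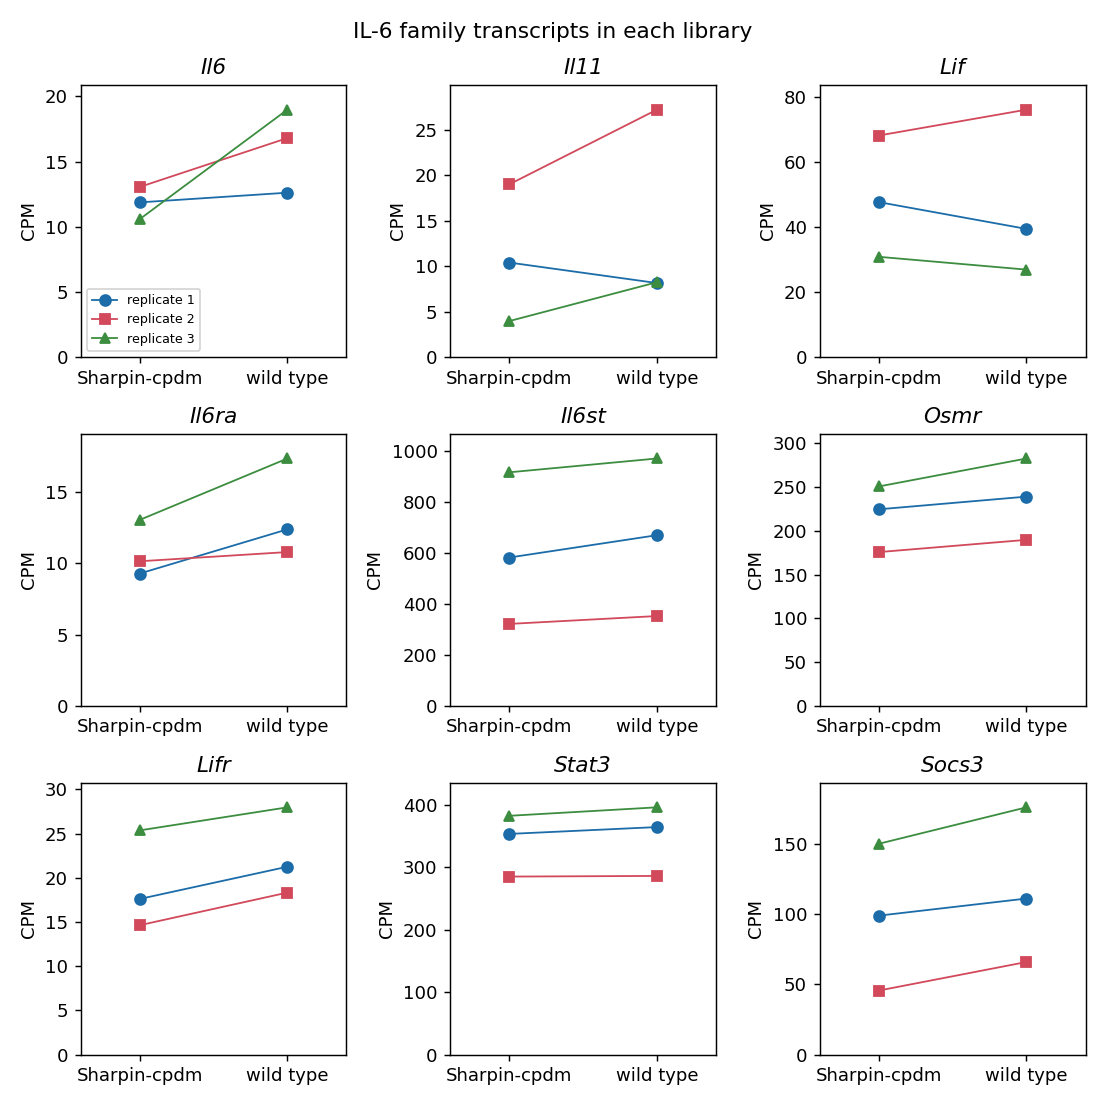
CPM of the 9 transcripts, 1 panel each, in the Sharpin-cpdm (left) and wild-type (right) libraries, with lines and colours joining libraries of the same replicate number. Lines for Il6, Il6ra, Il6st, Osmr, Lifr, Stat3 and Socs3 climb to the right in all 3 pairs, and the distance between the pairs is larger than the slope for every panel but that of Il6.

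The 3 ligand genes were not called and moved in no common direction. Il6 encodes the cytokine that names the family and lies at chr5:30013114-30019981 on the plus strand (GRCm38, ENSMUSG00000025746.11). It had CPM of 11.9, 13.0 and 10.6 in Sharpin-cpdm, against 12.6, 16.8 and 19.0 in wild type. The Sharpin-cpdm values lay within a narrow band, and only the value of Sharpin-cpdm library 2 reached above that of wild-type library 1. The log2 fold change was -0.46 ± 0.20 without the block (95% interval -0.93 to 0.01) and -0.45 ± 0.16 with it (-0.83 to -0.07; edgeR, adjusted p = 0.221). The difference was uneven, at -0.09, -0.36 and -0.84 log2 units in pairs 1, 2 and 3.

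Il11, which encodes a cytokine tied to fibroblast activation and bone turnover (chr7:4772373-4782859, minus strand, ENSMUSG00000004371.15), was the most variable member. Its values were CPM of 10.4, 19.0 and 3.95 in Sharpin-cpdm, and 8.14, 27.2 and 8.22 in wild type. Library 2 was the highest in both genotypes, and the genotypes differed in opposite directions in pair 1 (0.35 log2 units) and pairs 2 and 3 (-0.52 and -1.06). With the block the log2 fold change was -0.39 ± 0.24, with a 95% interval from -0.96 to 0.18 (edgeR with the block, adjusted p = 0.465).

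Lif, the gene of leukaemia inhibitory factor (chr11:4257557-4272514, plus strand, ENSMUSG00000034394.14), had the highest median level per length of the 3 ligands (given further on). It had CPM of 47.6, 68.1 and 30.8 in Sharpin-cpdm, and 39.4, 76.0 and 26.9 in wild type. Library 2 was again the highest and library 3 the lowest in both genotypes, and the pairs differed by 0.27, -0.16 and 0.20 log2 units. The log2 fold change with the block was 0.08 ± 0.09, the only value above 0 among the 9, with a 95% interval from -0.13 to 0.29 (edgeR with the block, adjusted p = 0.697). Without the block the interval ran from -1.05 to 1.12.

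Promoter sequence of the ligand genes is shown because Il6 is a textbook target of NF-kappaB, C/EBP and AP-1. In the 250 bases before each RefSeq start, the AP-1 motif TGANTCA was found for 3 of 3 ligand genes and for 0 of the 6 receptor and signalling genes, and in 6.75% of all 32851 RefSeq windows of that length. Il11 and Lifr have 2 windows each, and a match in any was counted. In the Il6 window (chr5:30012864-30013113, plus strand, GRCm38.p6, sequence from RefSeq), capitals mark, from left to right, TGANTCA at 249 to 243 bases before the start, the C/EBP motif TTGCNNAA read on the opposite strand at 128 to 121 bases, and matches to a kappaB-like motif (GGG, 5 bases of any kind, CC) at 85 to 76 bases and at 44 to 34 bases. The last run holds a match on each strand, and they overlap. The stretches of Il11 (chr7:4778216-4778256, minus strand, before the second of its 2 RefSeq starts, in an intron of the longer transcript) and Lif (chr11:4257323-4257363, plus strand) give TGANTCA in capitals with 17 bases on each side.
Il6: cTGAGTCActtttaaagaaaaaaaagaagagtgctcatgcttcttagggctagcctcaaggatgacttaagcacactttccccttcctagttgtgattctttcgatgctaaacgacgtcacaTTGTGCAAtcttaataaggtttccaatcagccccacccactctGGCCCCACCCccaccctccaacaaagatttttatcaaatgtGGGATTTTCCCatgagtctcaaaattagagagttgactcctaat
Il11: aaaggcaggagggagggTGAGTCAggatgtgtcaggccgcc
Lif: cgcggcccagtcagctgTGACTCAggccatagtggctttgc
TTGCNNAA was in 9.56% of all windows and in that of Il6 alone among the members. The kappaB-like motif was in 45.8% of all windows and in those of 7 members. All 4 motifs were searched on both strands. These are letter matches in the reference genome, not measured sites.

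The 4 receptor genes were each slightly lower in Sharpin-cpdm in all 3 pairs, and 0 of the 4 were called. Il6st, encoding gp130 (chr13:112464070-112510086, plus strand, ENSMUSG00000021756.12), had CPM of 581, 321 and 915 in Sharpin-cpdm, and 669, 352 and 969 in wild type. Library 2 was the lowest and library 3 the highest in both genotypes, a spread of 2.85-fold over the Sharpin-cpdm libraries and of 2.75-fold over the wild-type libraries. Each Sharpin-cpdm library lay slightly under its wild-type partner, with differences of -0.20, -0.13 and -0.08 log2 units. The log2 fold change was -0.15 ± 0.46 without the block and -0.15 ± 0.04 with it (edgeR with the block, adjusted p = 0.150).

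Il6ra, the gene of the IL-6 binding chain (chr3:89864059-89913196, minus strand, ENSMUSG00000027947.11), had CPM of 9.28, 10.1 and 13.1 in Sharpin-cpdm, against 12.4, 10.8 and 17.4 in wild type. The groups overlapped, since Sharpin-cpdm library 3 lay above wild-type libraries 1 and 2. With the block the log2 fold change was -0.32 ± 0.12 (95% interval -0.60 to -0.04; edgeR, adjusted p = 0.235), and the pair differences were -0.42, -0.09 and -0.41. An antisense gene, Gm42809, overlaps an exon of Il6ra, and without strand its reads cannot be told from those of Il6ra.

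Osmr and Lifr encode the partner chains for oncostatin M and LIF and lie on the same chromosome, at chr15:6813577-6874969 (minus strand, ENSMUSG00000022146.12) and chr15:7090614-7197489 (plus strand, ENSMUSG00000054263.12). Osmr had CPM of 225, 176 and 251 in Sharpin-cpdm, and 239, 190 and 283 in wild type. Its log2 fold change with the block was -0.14 ± 0.05 (edgeR with the block, adjusted p = 0.206), with pair differences of -0.09, -0.11 and -0.17. Lifr had CPM of 17.6, 14.6 and 25.4 in Sharpin-cpdm, and 21.3, 18.3 and 28.0 in wild type. Its log2 fold change with the block was -0.25 ± 0.08 (edgeR with the block, adjusted p = 0.160), with pair differences of -0.27, -0.32 and -0.14. Both were lower in Sharpin-cpdm in each pair, and both had their lowest value in library 2 and their highest in library 3 of each genotype.

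Stat3 had the smallest genotype difference with the block. The gene (chr11:100885098-100939540, minus strand, ENSMUSG00000004040.16) had CPM of 354, 285 and 383 in Sharpin-cpdm, and 365, 286 and 396 in wild type. The log2 fold change with the block was -0.05 ± 0.04 (95% interval -0.15 to 0.06; edgeR, adjusted p = 0.650). Its pair differences were -0.04, -0.0053 and -0.05 log2 units, and on TMM-scaled library sizes Stat3 was no longer lower in all 3 pairs, which left 6 of the 9 members (20.3% of tested genes). The end of Stat3 overlaps that of Stat5a on the opposite strand.

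Socs3, which encodes the feedback inhibitor that STAT3 induces (chr11:117966079-117970047, minus strand, ENSMUSG00000053113.3), came nearest to the threshold. It had CPM of 98.9, 45.6 and 150 in Sharpin-cpdm, and 111, 65.9 and 176 in wild type. All 3 pairs were lower in Sharpin-cpdm, with differences of -0.17, -0.53 and -0.23 log2 units, while the libraries of a genotype spanned 3.29-fold in Sharpin-cpdm and 2.67-fold in wild type. The log2 fold change was -0.28 ± 0.48 without the block and -0.31 ± 0.07 with it (95% interval -0.48 to -0.14; edgeR, adjusted p = 0.0882). Without pair 1, edgeR's test with the block called Socs3 (-0.38, adjusted p 0.0230) and Il11 (-0.69, adjusted p 0.0468), and without pair 2 or pair 3 it called 0 of the 9. Over all genes it called 673 of 13605 without pair 1 (533 of them lower), 128 of 13517 without pair 2 and 44 of 13465 without pair 3. In the fit without pair 1, 7 of 9 epithelial and 17 of 19 endothelial markers were called lower too. In the 250 bases before the RefSeq start of Socs3, the STAT motif TTCNNNGAA occurred once, as TTCTTAGAA at 154 to 146 bases, and no other member had it, while 7.02% of all windows did.

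**Figure D2:**
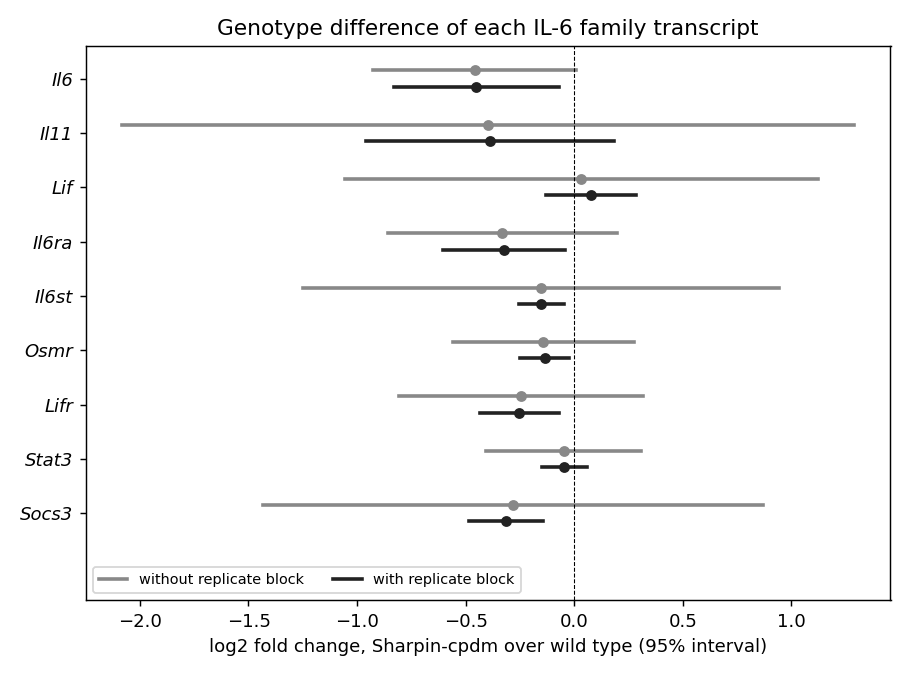
Log2 fold change (point) and 95% interval (bar) of each transcript, Sharpin-cpdm over wild type, without the replicate block (grey) and with it (black). With the block 8 of the 9 points lie below 0 and the interval of Stat3 runs from -0.15 to 0.06, whereas without it every interval reaches across 0.

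The range over the 3 pairs was larger than the genotype difference for 8 of the 9 transcripts. Averaged over both genotypes, log2 CPM differed between the highest and the lowest pair by 2.02 for Il11, 1.51 for Socs3, 1.43 for Il6st, 1.37 for Lif, 0.64 for Lifr, 0.49 for Osmr and Il6ra and 0.39 for Stat3. Only for Il6 was that range (0.33) smaller in size than the fitted genotype difference (-0.45). The 2 are unlike measures, since a range over 3 means of 2 libraries tends to exceed a difference between 2 means of 3 libraries. The ligand genes Lif and Il11 were higher in pair 2 than in pair 3, by 1.37 and 2.02 log2 units, and Il6st, Socs3, Lifr, Osmr, Il6ra and Stat3 stood the other way, at -1.43, -1.51, -0.64, -0.49, -0.46 and -0.39. What a replicate number marks is not given in the labels.

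**Figure D3:**
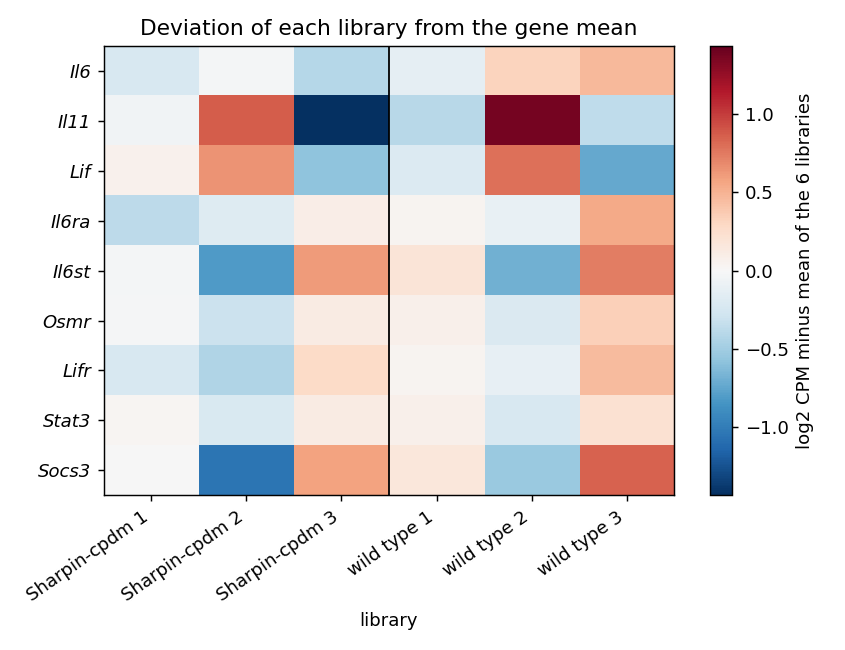
Log2 CPM of each transcript (rows) in each library (columns, Sharpin-cpdm on the left, wild type on the right) minus the mean of the 6 libraries. Il11 and Lif are red in library 2 of both genotypes, where Il6st, Osmr, Lifr, Stat3 and Socs3 are blue, and the last 5 are red in library 3.

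Levels of different genes can be compared only per length, so CPM was divided by the annotated exon length in kilobases (RPKM). By the median over the 6 libraries the order was Stat3 (57.7 RPKM), Il6st (56.9), Osmr (42.2), Socs3 (41.1), Lif (10.7), Il6 (5.28), Il11 (4.47), Lifr (1.91) and Il6ra (1.34). Every pair of neighbours in that order overlapped in range over the 6 libraries. Within a library, Socs3 was above Lif and Lifr above Il6ra in 6 of 6, whereas the order of the other neighbours changed between libraries. Genes further apart in the order differed more: Il6st had between 24.9 and 55.2 times the RPKM of Il6ra, and between 18.2 and 34.1 times that of Lifr. Osmr had between 18.7 and 24.1 times the RPKM of Lifr, so of the chains that pair with gp130 for LIF and oncostatin M, that for oncostatin M was the more abundant transcript. Exon length was the union over the basic annotated transcripts of a gene, which lowers the value of a gene with long exons that these cells do not use.

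**Figure D4:**
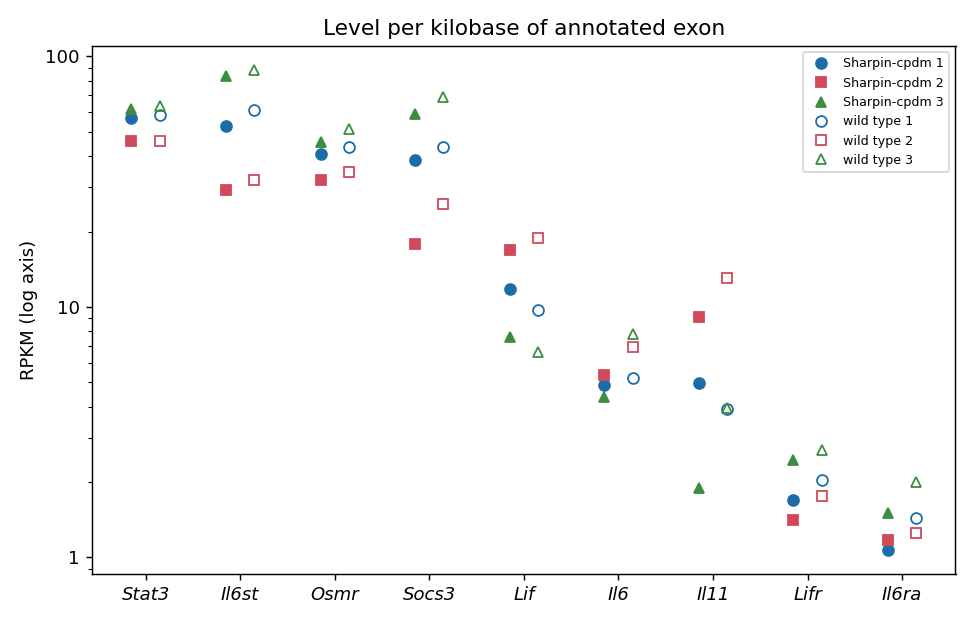
RPKM of each transcript on a log axis, ordered by median, with filled symbols for Sharpin-cpdm (left of each pair) and open symbols for wild-type libraries, and with shape and colour for the replicate number. Stat3, Il6st, Osmr and Socs3 lie between 17.9 and 88.3 RPKM, and Lifr and Il6ra between 1.07 and 2.69 RPKM.

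Of 9 further ligand genes of the family 3 passed the filter, and 0 were called in either fit of edgeR's test. Osm, the gene of oncostatin M, named after its values were seen, did not pass the filter, with CPM of 0, 0.290 and 0.402 in Sharpin-cpdm, and 0.0733, 0.383 and 0.492 in wild type. The libraries therefore held abundant Osmr transcript and almost none of its ligand's. Of 5 further receptor genes 3 passed the filter and 0 were called. Il11ra1, the IL-11 binding chain, had CPM of 39.6, 31.0 and 59.5 in Sharpin-cpdm, and 58.9, 32.5 and 72.0 in wild type, with a log2 fold change of -0.33 ± 0.10 (edgeR with the block, adjusted p = 0.158). Per length it was between 10.4 and 16.4 times as abundant as Il6ra. Its close copy Il11ra2 had 0 counts in all 6 libraries, and a read that aligns to both copies cannot be assigned to either.

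Transcripts of the signalling chain behind the receptors did not pass the threshold. In edgeR's test with the block, 0 of 9 tested Janus kinase and STAT genes, 0 of 6 genes for SHP2-ERK adaptors, 0 of 14 negative regulators and 0 of 2 receptor-shedding proteases were called, where 2.51% of all genes were. Their median log2 fold changes lay between -0.01 and 0.01. Jak1, the main kinase bound to gp130, had CPM of 366, 309 and 439 in Sharpin-cpdm, and 402, 330 and 514 in wild type, with -0.16 ± 0.05 (edgeR with the block, adjusted p = 0.175). Socs2, an inhibitor of growth hormone signalling, was the nearest to the threshold among the negative regulators. It had CPM of 27.0, 28.3 and 22.2 in Sharpin-cpdm, against 35.8, 34.2 and 36.3 in wild type, values that did not overlap. Its log2 fold change was -0.47 ± 0.10 (edgeR with the block, adjusted p = 0.0784). Adam10, a shedding protease, had 0.11 ± 0.04 (edgeR with the block, adjusted p = 0.284), and Shc1, an adaptor, -0.07 ± 0.04 (edgeR with the block, adjusted p = 0.495).

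Genes listed as responsive to STAT3 held 8 of the 9 calls made among the pathway lists in edgeR's fit with the block. Of 26 tested, 7 fell and 1 rose, where 2.11% of all tested genes were called lower and 0.394% higher, and 18 did not pass. The median log2 fold change of the 26 was -0.14. The list had been drawn up with earlier results of these data known, Saa3 among them, so its direction is not independent evidence. STAT3 activity was not measured, and whether STAT3 or another factor acts on these genes here was not tested. Serpina3n, an acute-phase protease inhibitor, had CPM of 29.8, 29.4 and 187 in Sharpin-cpdm, against 93.6, 90.8 and 546 in wild type. It was lower by a similar factor in each pair although library 3 was far above the others in both genotypes, with a log2 fold change of -1.62 ± 0.05 (edgeR with the block, adjusted p = 1.83e-04). Hp, which encodes the haemoglobin-binding protein haptoglobin, had CPM of 2.43, 2.25 and 8.57 in Sharpin-cpdm, against 9.09, 5.81 and 30.6 in wild type, and a log2 fold change of -1.76 ± 0.15 (edgeR with the block, adjusted p = 0.00595). Saa3, an acute-phase apolipoprotein gene, had CPM of 3.54, 2.75 and 23.0 in Sharpin-cpdm, against 25.4, 92.4 and 1060 in wild type (-5.04 ± 0.41, same adjusted p), and its groups did not overlap. The other 5 calls, named after their values were seen, were Cebpb, a factor that itself acts on acute-phase and Il6 promoters (-0.33), the lipopolysaccharide-binding Lbp (-1.02), Fgl2 (-1.21), the interleukin 4 receptor gene Il4ra (-0.26) and, as the rise, cyclin D1, Ccnd1 (0.42). Bcl3, Junb, Pim1 and Myc, picked after their values were seen as further textbook STAT3 targets, were not called (edgeR with the block, adjusted p = 0.603, 0.323, 0.145 and 0.277). Without the block 0 of the 26 were called. With it, 8 fell and 1 rose without pair 1, 4 fell and 0 rose without pair 2, and 3 fell and 0 rose without pair 3. In those 3 fits 533, 119 and 41 of all tested genes fell, and 140, 9 and 3 rose. Endothelial markers were lower beside the genes of this list, with values given further on, and their part in the calls of the list was not tested.

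Of 12 genes that control Il6 transcription and decay of its mRNA, 1 fell and 0 rose in edgeR's test with the block. Over all tested genes 2.11% fell and 0.394% rose. The gene that fell was Nfkbiz, which encodes IkappaB-zeta, a nuclear cofactor that Il6 needs for full induction in macrophages and fibroblasts. Nfkbiz had CPM of 29.8, 19.9 and 33.1 in Sharpin-cpdm, against 44.8, 25.5 and 49.7 in wild type, with a log2 fold change of -0.53 ± 0.07 (edgeR with the block, adjusted p = 0.0249). Sharpin-cpdm was lower in each pair, and the groups overlapped. The median log2 fold change of the 12 was -0.09. Without pair 3, 0 of the 12 were called.

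**Figure D5:**
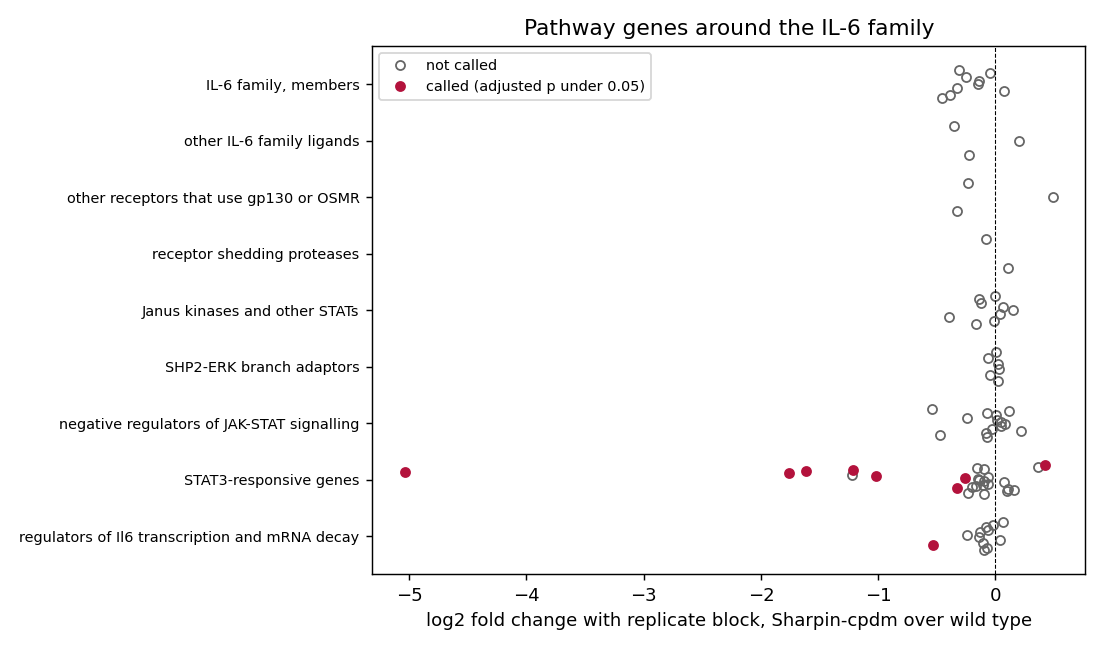
Log2 fold change with the replicate block, Sharpin-cpdm over wild type, of the tested genes of each list (open, not called; filled, adjusted p under 0.05 in edgeR's test). The filled points are 8 of 26 genes listed as responsive to STAT3 and 1 of 12 regulators of Il6. Of all tested genes 2.51% were called.

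Markers of other cells also differed. With the block edgeR called 2.11% of all tested genes lower and 0.394% higher. Without pair 1, 2 and 3 it called 533 of 13605, 119 of 13517 and 41 of 13465 genes lower, and 140, 9 and 3 higher. Of 19 endothelial markers it called 15, all lower (17, 8 and 1 without pair 1, 2 and 3). Their summed level was CPM of 614, 760 and 895 in Sharpin-cpdm, against 809, 1331 and 1426 in wild type. Macrophage markers, of which 0 of 12 tested were called, had summed CPM of 155, 421 and 261 in Sharpin-cpdm, and 85.3, 501 and 212 in wild type. Library 2 was highest in both genotypes for that sum, as for Lif and Il11. The likeness ended there, since the sum was lowest in library 1 and Lif in library 3 of both genotypes. Lyz2 weighed most in the sum, with CPM of 102, 263 and 158 in Sharpin-cpdm, and 46.3, 295 and 118 in wild type. Cd68 and Itgam, named after their values were seen, were highest in library 3 of Sharpin-cpdm and library 2 of wild type. Epithelial markers had summed CPM of 443, 354 and 208 in Sharpin-cpdm, and 312, 550 and 383 in wild type, with 0 of 9 called. Without pair 1, the fit in which Socs3 and Il11 were called, 7 of the 9 epithelial markers were called lower, and without pair 2 or pair 3 it was 0; their part in those calls was not tested. Of 15 fibroblast markers 4 fell (5, 2 and 2 without pair 1, 2 and 3, with 1 higher without pair 1). The 4 were Fbln1, Lum, Fap and Dcn, named after their values were seen. Postn, Fn1 and Vim, named likewise, stood higher in Sharpin-cpdm, with groups that did not overlap (log2 fold change 0.25, 0.32 and 0.13). They were not called (edgeR with the block, adjusted p = 0.0783, 0.0706 and 0.221). DESeq2 with the block called 5 of the 15 lower and 2 higher. The sum of all 15 lay between 78712 and 92080 CPM in Sharpin-cpdm and between 78355 and 97641 CPM in wild type. Collagen genes weigh most in that sum (Col1a1 at mean CPM of 22042 in Sharpin-cpdm and 22317 in wild type). Dcn, at mean CPM of 521 in Sharpin-cpdm and 1067 in wild type, hardly enters it. Of 8 mural markers 3 fell (6, 1 and 0 without pair 1, 2 and 3), and 0 of 10 stress genes were called. Of 7 adipocyte markers 2 were tested and 1 fell (Fabp4), with Adipoq, Plin1, Cfd, Lep and Cidec below the filter. Of 13 leukocyte markers 10 were below the filter, and 1 of the 3 tested fell (Kit, not called without pair 3). Ptprc and Cpa3, also tested, were not called (edgeR with the block, adjusted p = 0.690 and 0.212). Their mean CPM in wild type was 2.90 and 2.97, against 35.2 for Kit. No endothelial, macrophage, epithelial or fibroblast marker was at 0 in all libraries, and the part of other cells in the values above was not tested.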

How the data were processed

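RNA of 6 cultures was sequenced after TruSeq RNA v2 preparation, which does not mark strand. The tools named are HTSeq 0.5.4p3, TopHat2 2.0.10 and bcl2fastq 1.8.4, with mm10 as the build, per the submitters' processing notes. Annotation, strand and overlap settings are not given in the sources used here. Deposited by the authors were raw counts per gene symbol, 1 table a library, with 23337 gene rows and 5 summary rows. The summary rows held between 48.8% and 51.2% of entries and entered neither library sizes nor tests, so reads that align to several places are missing from near-identical genes.

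CPM and RPKM use the total of gene rows. Coordinates and exon lengths are from GENCODE M21 (GRCm38, the assembly of mm10), basic set. Tests used R 4.3.3 with edgeR 4.0.16: filterByExpr by group, TMM factors between 0.969 and 1.03, the quasi-likelihood F-test of genotype, two-sided, with Benjamini-Hochberg adjustment over 13442 genes. An SE was taken as |log2 fold change| over the root of F. DESeq2 1.42.0 and limma 3.58.1 were alternatives, beside RLE, upper quartile and total-count scaling, no filter, and fits without each library or pair. Both edgeR fits were also run on simulated counts with the pair differences built in, and the outcome is not reported here. Replicates are separate pools of mice, per the labels. No 2 libraries of a group matched within sampling noise (chi-square per degree of freedom of their counts above 1 throughout).

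Deviations from group means in log2 CPM (prior count 2) correlated at between 0.457 and 0.809 for same-numbered libraries and between -0.691 and 0.00676 for others, across genes, which are not independent. Deviations from a mean cancel out within a genotype, so the second range follows in part from the first. From the first range, same-numbered libraries were taken as pairs, which rests on the data, since the meaning of a number is not labelled. The members and lists were chosen with earlier results of these data known. By rule, genes named beyond the members were Sharpin and, from each pathway list, up to 3 genes called with the block by smallest p. Where none was called, the 1 with the smallest p was named. The rule also named those most like a member (Pearson's r of log2 CPM, mean of at least 5 CPM). Other genes, cell type markers among them, were named outside this rule. A gene that this rule names is not reported here.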

Additional observations from a re-analysis of the deposited data

How the results depend on the processing

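The count of called members was 0 in the fit without the block and in 18 of 19 alternatives, and 2 with the block without replicate 1 (Il11 at -0.69 and Socs3 at -0.38). Il6, Il6ra and Lifr kept a log2 fold change below 0 under all 19. Others changed sign when a library was left out. Over the 9 fits that left out a library or a pair, the log2 fold change ranged from -1.07 to 0.46 for Il11, -0.32 to 0.57 for Lif, -0.56 to 0.23 for Il6st, -0.27 to 0.0037 for Osmr, -0.16 to 0.052 for Stat3 and -0.71 to 0.13 for Socs3, with Lif at -0.022 with the block without replicate 1. The cause was not tested. With the block, Il11, Il6st, Osmr, Stat3 and Socs3 stayed below 0 without each pair in turn. The replicate block changed no call of a member. Over all genes, edgeR's test called 337 with the block, 336 with RLE scaling and the block, 365 with total-count scaling and the block, and DESeq2 called 341 with the block and 10 without. Leaving out libraries or pairs gave from 0 to 673 calls (with the block, 673, 128 and 44 without replicate 1, 2 and 3). By limma-voom no gene (0) was called, and 272 had p under 0.05 before adjustment. Sharpin was called with the block (-1.48, with RLE scaling -1.48, with total-count scaling -1.47, in DESeq2 -1.48) and in DESeq2 without it (-1.49), and ranged from -1.61 to -1.34 over the left-out fits, with -1.50 with the block without replicate 2. Of the pathway genes beyond the members, 9 were called with the block and 10, 5 and 3 without replicate 1, 2 and 3. The lowest count of a member in a library was 59 (Il11), so precision is lowest there.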

Other observations

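The genes most like a member over the 6 libraries were sought among those with a mean of at least 5 CPM, by Pearson's r of log2 CPM, as a description with no test. The 6 libraries share the pair differences described above. Nearest to Il6 were Spon1, a secreted matrix protein (r = 0.984), Cp, the copper carrier ceruloplasmin (0.983), and Ggps1, an enzyme of isoprenoid synthesis (0.980). Spon1 had CPM of 190, 238 and 148 in Sharpin-cpdm, against 263, 422 and 484 in wild type. Cp had CPM of 26.0, 35.7 and 26.3 in Sharpin-cpdm, against 34.5, 60.9 and 82.0 in wild type. The groups did not overlap for Spon1 and overlapped for Cp, and neither was called (edgeR with the replicate block, adjusted p = 0.0824 for Spon1 and 0.0882 for Cp). Nearest to Lif were Slc41a2, Ube2f and Fam132b, nearest to Socs3 were Cpt1a, Klf11 and Cachd1, and nearest to Stat3 were Phf21a, Gigyf2 and Chchd10, with r between 0.997 and 0.999 and, in the same fit, adjusted p between 0.129 and 0.862.

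Within a library, Lif had between 0.848 and 3.13 times the RPKM of Il6. The ratio was 2.40, 3.13 and 1.74 in Sharpin-cpdm libraries 1 to 3, and 1.87, 2.71 and 0.848 in wild-type libraries 1 to 3. Sharpin-cpdm was higher in each pair. The ratio of Socs3 to Stat3 RPKM was 0.682, 0.390 and 0.957 in Sharpin-cpdm libraries 1 to 3, and 0.743, 0.562 and 1.08 in wild-type libraries 1 to 3, lower in Sharpin-cpdm in each pair. Both directions follow from the pair differences of the single genes given above, so they are not separate results. Neither ratio was tested.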
